A study of Mus musculus with 3 samples.

Results

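Interferon-signature B cells are blood B cells that carry several transcripts of genes switched on by interferon. Among the B cells of mouse blood they were taken here as barcodes with at least 3 unique molecular identifiers (UMIs, 1 for each RNA molecule captured and counted) summed over Ifit1, Ifit2, Ifit3, Ifit3b, Usp18 and Oasl1. A B cell was a barcode with 200 or more genes, a mitochondrial share of UMIs up to 10%, at least 3 UMIs of Cd79a and Cd79b together, at most 1 UMI of Cd3e, Cd3d and Cd3g together, and under 3% of its UMIs from S100a8 and S100a9. The rule found 147 such cells among 7726 B cells, 18885 kept barcodes and 22204 deposited barcodes. The other 7579 B cells, taken library by library, serve as the comparison. No cell class was assigned by the submitters in the files used here.

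The study measured leukocytes from the blood of C57/BL6J mice by droplet sequencing of RNA 3′ ends (10x Genomics chemistry) and asked what sleep loss does to them. The 3 groups of the labels are controls without sleep deprivation (Con, 0 h), mice after 24 h of sleep deprivation (SD24h) and mice after 48 h (SD48h). Each group is a single library made from leukocytes pooled over 3 mice after lysis of red cells, with 7000 cells planned. The barcodes carry the endings 1, 2 and 3, called libraries 1, 2 and 3 below, and nothing in the labels says which ending is which group. For that reason no group was set against another, no library stands for the controls, and no value below describes an effect of sleep deprivation. Mice cannot be told apart within a library, so no p-value was computed, and the 95% intervals given are exact intervals that cover counting error only.

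Interferons of type I bind a receptor made of Ifnar1 and Ifnar2, whose kinases Jak1 and Tyk2 phosphorylate transcription factors of the Stat family. With Irf9 these form a complex that enters the nucleus and binds the interferon-stimulated response element in the promoters of the responding genes. In lymphocytes of the blood the response includes antiviral proteins such as the Ifit family and the ubiquitin-like Isg15, the transcription factor Irf7 that amplifies the response, and Usp18, which damps signalling at the receptor.

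Library 1 held 50 interferon-signature cells among 4303 B cells, which is 1.16% (0.864% to 1.53%). Library 2 held 33 among 1415, which is 2.33% (1.61% to 3.26%), and library 3 held 64 among 2008, which is 3.19% (2.46% to 4.05%). The interval of library 1 overlapped neither of the others, and those of libraries 2 and 3 overlapped. When every B cell was thinned to 2000 UMIs the shares were 0.476% (20 of 4200, 0.291% to 0.734%), 1.25% (17 of 1363, 0.728% to 1.99%) and 1.91% (37 of 1933, 1.35% to 2.63%), in the same order. There the intervals of neighbours in that order overlapped, and those of libraries 1 and 3 did not. The libraries held 40807434, 30114546 and 36523283 UMIs over all barcodes. Of 22143 barcode sequences 61 occurred in more than 1 library, and 0 of the 147 members had such a sequence.

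The gate selects barcodes with B cell RNA. All 147 members had at least 1 UMI of Cd79a, a signalling chain of the B cell receptor. As a gene of the gate, its detection follows largely from the rule. A list of 16 B cell genes, those of the gate included, took a median of 1.55%, 1.66% and 1.515% of a member's UMIs. In the other B cells this was 1.58%, 1.64% and 1.62%. The lowest members held 0.114%, 0.443% and 0.292%, and the lowest other B cells 0.0232%, 0.176% and 0.0583%. Ighd, the constant region of IgD and not part of the gate, was detected in 98.0%, 97.0% and all of the members in libraries 1, 2 and 3, and in 96.0%, 97.3% and 95.3% of the other B cells. Members held a median of 4436, 3935 and 4127 UMIs against 3990, 3825 and 3621 in the other B cells. Their median mitochondrial share was 6.64%, 6.55% and 5.85% against 6.92%, 6.26% and 6.03%. The median member was thus slightly deeper than the median of the cells it is compared with in all 3 libraries. The deepest member held 61312, 20015 and 17821 UMIs, and the deepest other B cell 27225, 22614 and 32476. Members of library 1 held 370748 UMIs in all. Levels from summed UMIs, used below, give deep barcodes more weight than the typical member.

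Most members carried few UMIs of the rule genes, and a small number carried many. The median member held 4, 5 and 5 rule UMIs in libraries 1, 2 and 3, and the highest held 40, 21 and 27. Members with 10 or more numbered 10, 7 and 16, and these held 58.4%, 51.0% and 57.5% of all rule UMIs found in members. Just inside the threshold, 21, 10 and 20 members had exactly 3 rule UMIs. Just outside it, 58, 27 and 53 B cells had 2, while 396, 96 and 209 had 1 and 3799, 1259 and 1682 had 0. Of the 147 members 133 had UMIs of at least 2 of the 6 genes, 85 of at least 3, 4 of all 6, and 14 passed the threshold on 1 gene alone.

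**Figure D1:**
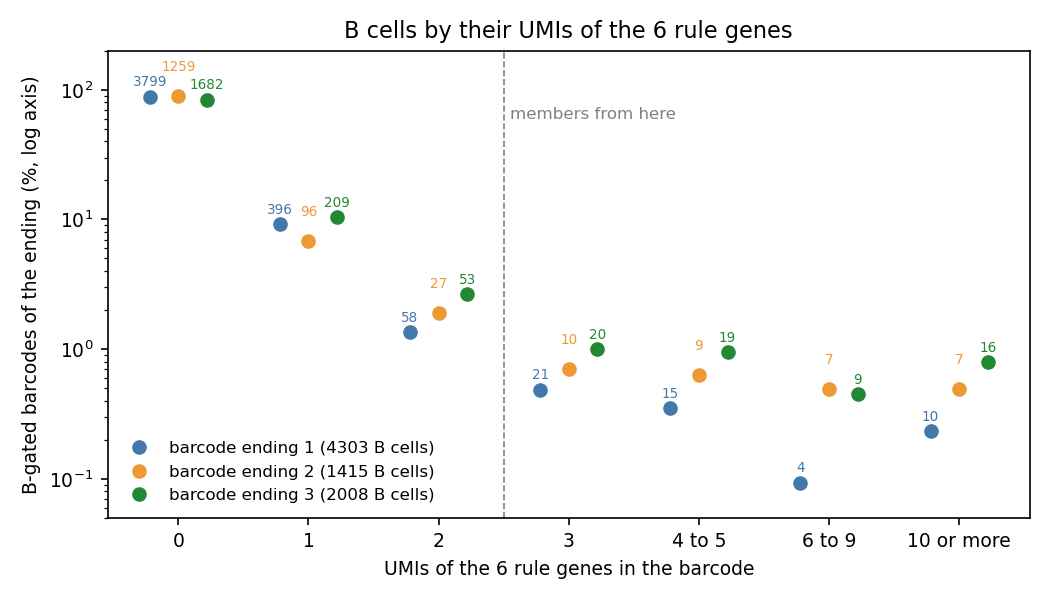
Share of B-gated barcodes of each library (percent, log axis) by the number of UMIs of the 6 rule genes they hold, with the number of barcodes above each point and the threshold as a dashed line. The counts fall from 3799, 1259 and 1682 barcodes at 0 UMIs to 58, 27 and 53 at 2. Above the threshold the bins cover more than 1 value, and the last, 10 or more, holds 10, 7 and 16 barcodes.

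The genes of the rule are described here without a test, since they chose the cells. Levels are summed UMIs scaled to a total of 1000000 UMIs of the same cells (CPM, counts per that total), a scale that compares a gene between cells and not 1 gene with another. Ifit3, which encodes an RNA-binding antiviral protein, stood at 434, 537 and 659 CPM in members and at 4.36, 5.85 and 10.6 CPM in the other B cells. It was found in 37 of 50, 28 of 33 and 55 of 64 members. Ifit1, its partner that recognises foreign RNA caps, stood at 245, 255 and 273 CPM against 3.45, 3.27 and 4.74 CPM.

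Ifit2, another member of the family, reached 111, 99.0 and 144 CPM in members against 8.56, 4.99 and 6.36 CPM. Ifit3b, a near copy of Ifit3, reached 64.7, 141 and 198 CPM against 0.760, 1.20 and 1.5 CPM. The last 600 bases of their annotated transcripts share 0.181% of their 50-base words. Usp18, the protease that removes Isg15 from proteins, stood at 102.5, 141 and 123 CPM against 2.48, 3.78 and 5.37 CPM. Oasl1, a relative of the oligoadenylate synthetases known for restraining Irf7 translation, stood at 67.4, 93.8 and 114 CPM against 6.33, 6.71 and 10.7 CPM. Oasl1 and Ifit2 were nonetheless spread over many B cells outside the rule: in library 1 members held 25 UMIs of Oasl1 and 41 of Ifit2, and the other B cells 125 and 169.

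The promoters of 2 rule genes and of 3 genes outside the rule are shown, because a common sequence lies in all of them. Each line gives the 250 bases before the RefSeq transcript start (GRCm38.p6), 5′ to 3′ on the gene's strand, with matches to GAAANNGAAA or to its reverse complement TTTCNNTTTC in capitals. This is a core form of the interferon-stimulated response element, searched on both strands. The windows are chr19:34583279-34583528 on the plus strand for Ifit3, chr19:34640639-34640888 on the plus strand for Ifit1, chr4:156200819-156201068 on the minus strand for Isg15, chr11:82951852-82952101 on the plus strand for Slfn5 and chr1:173535958-173536207 on the minus strand for Ifi214.
Ifit3: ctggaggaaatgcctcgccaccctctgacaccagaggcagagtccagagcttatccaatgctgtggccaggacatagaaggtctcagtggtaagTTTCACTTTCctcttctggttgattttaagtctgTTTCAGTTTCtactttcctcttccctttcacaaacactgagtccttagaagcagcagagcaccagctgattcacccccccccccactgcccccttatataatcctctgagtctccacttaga
Ifit1: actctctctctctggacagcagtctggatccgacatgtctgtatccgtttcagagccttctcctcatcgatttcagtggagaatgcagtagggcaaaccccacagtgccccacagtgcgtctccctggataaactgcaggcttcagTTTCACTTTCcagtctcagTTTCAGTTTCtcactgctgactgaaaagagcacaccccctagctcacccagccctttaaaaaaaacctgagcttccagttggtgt
Isg15: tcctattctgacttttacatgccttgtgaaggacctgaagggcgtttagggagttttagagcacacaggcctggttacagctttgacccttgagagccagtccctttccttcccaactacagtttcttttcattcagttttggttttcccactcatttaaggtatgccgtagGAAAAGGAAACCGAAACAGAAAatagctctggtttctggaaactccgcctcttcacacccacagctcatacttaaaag
Slfn5: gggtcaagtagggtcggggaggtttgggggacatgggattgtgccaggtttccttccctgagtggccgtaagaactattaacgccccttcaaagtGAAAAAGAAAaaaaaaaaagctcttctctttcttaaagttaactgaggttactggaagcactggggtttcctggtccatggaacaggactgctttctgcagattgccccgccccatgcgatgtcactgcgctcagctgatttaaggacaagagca
Ifi214: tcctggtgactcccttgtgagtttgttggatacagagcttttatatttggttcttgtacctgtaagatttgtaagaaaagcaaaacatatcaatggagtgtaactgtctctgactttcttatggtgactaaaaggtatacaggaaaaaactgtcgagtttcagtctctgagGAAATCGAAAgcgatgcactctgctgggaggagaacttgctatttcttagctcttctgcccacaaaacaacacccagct
Ifit3 and Ifit1 each had 2 matches to TTTCNNTTTC on this strand, and Isg15 had 3 matches that overlap. The match nearest the start began 122 bases before it in Ifit3, 85 in Ifit1, 66 in Isg15, 155 in Slfn5 and 79 in Ifi214. Ifit3b also had 2 matches, while the windows of Ifit2, Oasl1 and Irf7 had 0.

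Shares of promoters with the motif are given as a description, with no test. Of all 32851 promoters from RefSeq 2.98% held it in these 250 bases, and of the 27025 genes they belong to 3.46% held it in at least 1 promoter. Of the interferon-list genes that were at least 2-fold higher in members in every library, 34 had a RefSeq promoter and 18 (52.9%) held the motif. Ifit3 of the rule is among these. Of the tested interferon-list genes that were not, 8 of 43 (18.6%) held it. Interferon receptors, kinases and transcription factors held it in 3 of 22 (13.6%). A match is a stretch of letters and was not tested for binding.

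Over all genes, 6825 reached 10 CPM over the B cells of every library, members included, and could be compared. At least 2-fold higher in members in all 3 libraries were 55 of them (0.806%), Ifit3 of the rule included, and 7 (0.103%) were at least 2-fold lower. Within single libraries 3.48%, 6.08% and 2.86% of tested genes were that much higher and 6.22%, 9.74% and 7.44% that much lower. Of the 94 tested genes on an interferon list 41 (43.6%) were higher in all 3 libraries, against 14 of 6731 (0.208%) on no such list. Ifit3, which helped choose the cells, is in both the 41 and the 94. It reached 10 CPM in libraries 1 and 2 only through the members, with 4.36 and 5.85 CPM in the other B cells. Tor3a, Ifi206, Ifi213 and Ifi214, markers given for these cells, are in both counts too. These markers were chosen with results of these data known. The median log2 ratio over all tested genes was -0.06, 0.00 and -0.06.

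Antiviral effectors made up the largest block. Of 48 tested effectors outside the rule 27 were at least 2-fold higher in all 3 libraries and 0 were lower, and the median log2 ratio was 1.63, 1.71 and 1.40. The 27 include genes that reached 10 CPM only through the members. These were Isg15 in libraries 1 and 2 and Ifit1bl1 in library 2, where the other B cells held 9.46 CPM of Ifit1bl1. Isg15, a ubiquitin-like protein attached to newly made proteins, stood at 178, 224 and 309 CPM in members against 8.77, 7.91 and 11.7 CPM in the other B cells. That is 20.3-fold (15.1 to 27.1), 28.3-fold (18.2 to 43.9) and 26.3-fold (19.7 to 35.2) higher. It was detected in 34.0%, 54.5% and 46.9% of members and in 3.50%, 2.68% and 3.76% of the other B cells. Isg15 was therefore absent from the counts of many members, while its level over all of them was far above that of the other B cells in each library.

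Slfn5, a Schlafen family protein, stood at 370, 396 and 440 CPM against 28.2, 37.7 and 35.9 CPM, a ratio of 13.1 (10.8 to 15.8), 10.5 (7.99 to 13.7) and 12.2 (9.98 to 15.0). Rtp4, an interferon-induced receptor transporter protein, stood at 148, 193 and 159 CPM against 11.9, 16.2 and 31.4 CPM. Its ratio was 12.5 and 11.9 in libraries 1 and 2 and 5.05 in library 3, where the other B cells had more of it. Zbp1, a sensor of Z-form nucleic acid, stood at 119, 167 and 222 CPM against 20.4, 21.2 and 30.8 CPM.

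Herc6, the mouse ligase that attaches Isg15, stood at 105, 135 and 138 CPM against 18.2, 18.2 and 18.2 CPM, so the other B cells held the same level in all 3 libraries. Xaf1, an antagonist of apoptosis inhibitors, stood 4.90-, 6.25- and 6.10-fold higher in members. Tor3a, an interferon-induced ATPase of the torsin family and 1 of the cell markers given for these cells, stood at 132, 172 and 150 CPM against 27.4, 30.3 and 34.2 CPM. Phf11b stood 5.32-, 4.95- and 3.90-fold higher, and its 3′ end shares 37.9% of 50-base words with Phf11c, so reads of the pair may not be told apart.

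Bst2, the tetherin that holds budding virus at the cell surface, stood at 197, 234 and 285 CPM against 51.9, 51.9 and 68.8 CPM. Trim30a, a negative regulator of Toll-like receptor signalling, stood at 429, 333 and 360 CPM against 82.7, 88.6 and 94.5 CPM. The 17 other effectors that were higher in every library were Adar, Daxx, Dtx3l, Eif2ak2, Epsti1, Ifi27l2a, Ifi35, Ifit1bl1, Ifitm3, Isg20, Lgals9, Ms4a4c, Parp14, Parp9, Rnf213, Slfn8 and Trim30d. Ifi27l2a, a small mitochondrial protein, stood at 1697, 1854 and 1819 CPM in members against 424, 461 and 715 CPM. Genes without such a call that are named here and below were chosen after their values were seen. Ly6e, a surface protein that restricts virus entry, stood at 2347, 2990 and 2669 CPM in members against 2360, 2592 and 2637 CPM. Its ratio lay between 0.994 and 1.15, so this effector did not separate members from the other B cells.

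**Figure D2:**
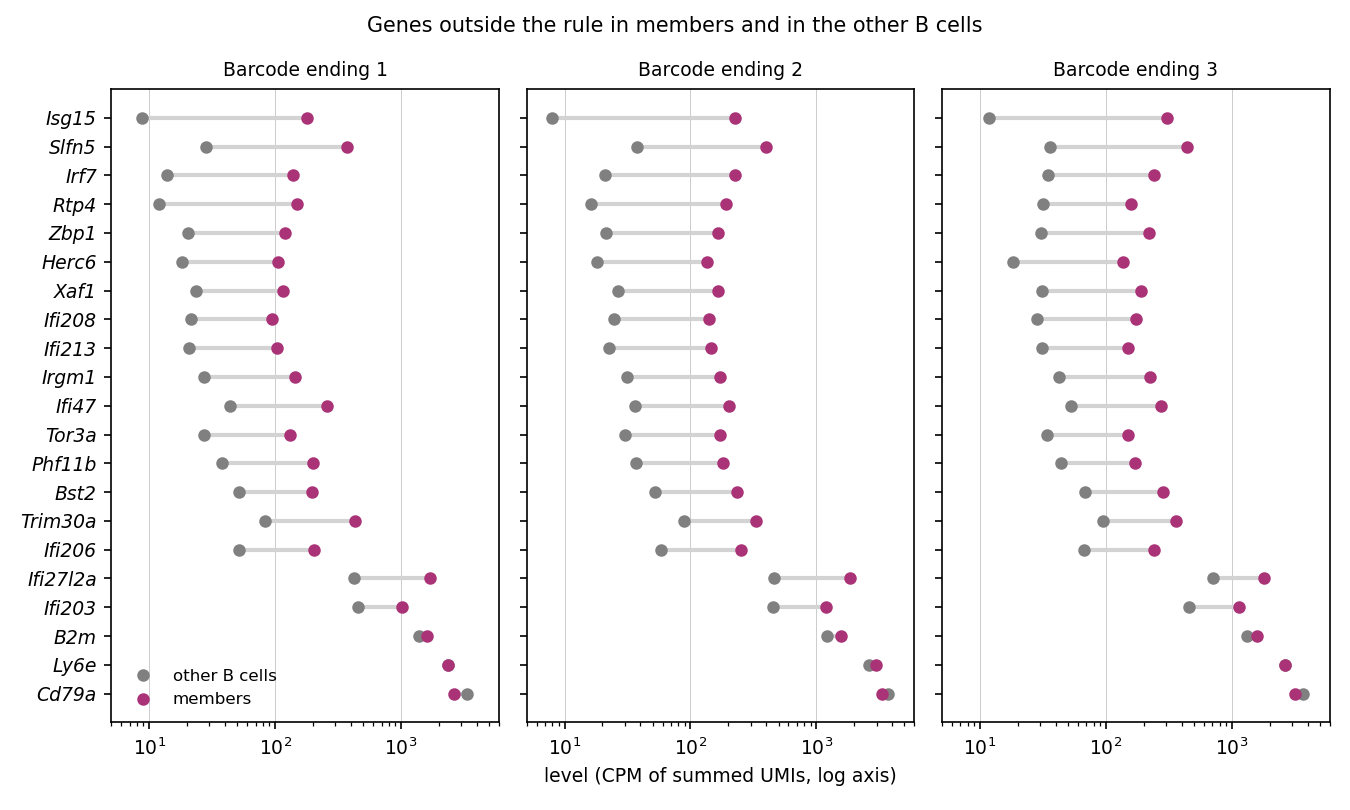
Levels (CPM of summed UMIs, log axis) of 21 genes outside the 6 rule genes in members and in the other B cells, 1 panel per library. Isg15 lies between 178 and 309 CPM in members and between 7.91 and 11.7 CPM in the other B cells, whereas B2m, Ly6e and Cd79a lie close together in both.

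Some effectors were too rare in B cells to be tested and are given as levels. Mx1, a GTPase that blocks virus replication, was detected in 15 of 50, 9 of 33 and 10 of 64 members and in 26 of 4253, 9 of 1382 and 17 of 1944 other B cells. Rsad2, the viperin that makes a chain-terminating nucleotide, stood at 94.4, 41.7 and 92.9 CPM in members against 3.09, 3.61 and 9.11 CPM. Cmpk2, its neighbour in the genome, stood at 56.6, 83.4 and 71.9 CPM against 6.84, 5.68 and 8.86 CPM. Mx1, Rsad2 and Cmpk2 were higher in members in each library, though they rest on few UMIs. Not all untested effectors were: Ifitm1 and Oas1c did not stand above the other B cells in every library. With no filter on low levels 39 effectors were at least 2-fold higher in all 3 libraries, against 27 with it.

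The p200 family, whose proteins carry a HIN domain that binds DNA, was high in members as a block. Of 8 tested genes of the family 6 were at least 2-fold higher in all 3 libraries and 0 were lower, beside 0.806% and 0.103% of all tested genes. Their median log2 ratio was 1.63, 1.82 and 1.57. Ifi206, Ifi213 and Ifi214 of the 6 are markers given for these cells, chosen with results of these data known. Their calls are therefore no independent support. All 6 lie in 1 cluster on chromosome 1 of GRCm38, at chr1:173468485-173942672, from Ifi206 to Ifi203. Ifi208 stood at 94.4, 141 and 174 CPM against 21.4, 24.6 and 28.5 CPM, and Ifi213 at 102.5, 146 and 150 CPM against 20.7, 22.7 and 31.3 CPM. Ifi206 stood at 205, 250 and 240 CPM against 51.5, 58.6 and 67.5 CPM. It was detected in 66.0%, 69.7% and 67.2% of members and in 18.3%, 18.2% and 20.9% of the other B cells.

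Ifi214 stood at 251, 328 and 210 CPM against 59.7, 59.2 and 59.5 CPM, and Ifi209 stood 2.41-, 2.92- and 2.42-fold higher. Their 3′ ends share 67.9% of 50-base words, so the split of reads between these 2 genes is uncertain. Ifi203 stood at 1022, 1188 and 1142 CPM against 454, 454 and 458 CPM. The 2 tested members below the threshold were Mndal, at 1.51-, 2.07- and 1.82-fold, and Aim2, the inflammasome sensor of DNA, at 1.26, 1.17 and 0.532. Aim2 thus stood apart from its neighbours in the list. The other B cells held nearly equal levels of Ifi203 and Ifi214 in the 3 libraries.

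The signalling chain showed no common shift in members. Of 21 tested receptors, kinases and transcription factors 1 was at least 2-fold higher in every library and 0 were lower. Over all tested genes 0.806% were higher and 0.103% lower, so this count says little. The median log2 ratio of the 21 was 0.15, -0.07 and -0.08, against -0.062, -0.002 and -0.057 over all tested genes. In every library 7 of the 21 were above the other B cells and 7 below, beside 901 and 1300 of all 6825 tested genes. Irf7, the factor that amplifies interferon production, stood at 138, 224 and 243 CPM against 13.8, 21.0 and 34.8 CPM, a ratio of 9.98 (7.25 to 13.5), 10.7 (7.36 to 15.2) and 6.97 (5.37 to 8.96).

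Other factors of the chain moved less evenly. Irf9, a DNA-binding subunit of the complex, stood 1.94-, 3.45- and 1.52-fold higher, and Stat2 1.41-, 2.98- and 3.40-fold. The receptor chain Ifnar1 had ratios of 1.36, 1.13 and 0.695, with intervals that include 1 in each library, and Ifnar2 had 2.24, 0.947 and 0.898. The kinase Jak1 had ratios of 0.964, 0.810 and 0.765, and Tyk2 had 1.11, 0.470 and 1.03. Socs1, a feedback inhibitor of the kinases that was too rare to test, stood at 29.7, 36.5 and 83.9 CPM against 5.83, 5.16 and 11.2 CPM. The other genes tested from this list did not reach 2-fold in all 3 libraries.

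The interferons themselves were all but absent from the B cells. The 20 genes of type I and type III interferons had 0 UMIs in members and 0 in the other B cells, and 3 UMIs in all 18885 kept barcodes. Ifng, the type II interferon of T and NK cells, had 1 UMI in members. It had 18, 2 and 4 UMIs in the other B cells of libraries 1, 2 and 3, and 121, 11 and 90 in all kept barcodes.

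Sensors of nucleic acid and the GTPases induced by type II interferon were partly higher, beside 0.806% of all tested genes. Zbp1, Eif2ak2 and Adar of the sensors are also among the 27 effectors above, so Ddx58 alone adds to them. Of 9 tested sensors 4 were higher in all 3 libraries: Zbp1, given above, the RNA helicase Ddx58 (2.43-, 2.71- and 2.75-fold), the kinase Eif2ak2 (6.14-, 6.06- and 2.73-fold) and the RNA editor Adar (3.11-, 2.06- and 2.22-fold). The DNA pathway adaptor Tmem173, known as STING, stood at 0.835, 0.688 and 0.972. Of 11 tested GTPases and related genes 5 were higher: Irgm1 (5.28-, 5.46- and 5.25-fold), Ifi47 (5.90-, 5.65- and 5.19-fold), Gbp7 (4.71-, 3.00- and 5.26-fold), Igtp (3.04-, 5.37- and 3.66-fold) and Gbp4 (2.33-, 2.67- and 3.49-fold). Irgm1 and Ifi47, GTPases that act on vacuoles holding microbes, thus had nearly the same ratio in every library.

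Ciita, the master regulator of class II antigen presentation, stood at 0.819, 0.841 and 0.696. Cxcl9 and Ido1 had 0 UMIs in members. Cxcl10, the chemokine of interferon responses, was found in 2 members of each library with 25, 2 and 3 UMIs, and 1 member of library 1 held 76.0% of the 25. Within this list the GTPases named above were thus high in members, while Ciita was not and the chemokines were rare.

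Genes of antigen presentation by class I shifted slightly upward and none reached 2-fold in all 3 libraries. Of 19 tested genes 13 were above the other B cells in every library and 0 were below in every library, beside 901 above and 1300 below among all 6825 tested genes, with a median log2 ratio of 0.33, 0.28 and 0.41. The peptide transporter Tap1 stood at 162, 161 and 174 CPM against 88.2, 91.3 and 99.7 CPM, and its ratio was 1.84, 1.77 and 1.74. The nonclassical H2-T23 stood 1.37-, 1.87- and 1.70-fold higher. B2m, the light chain of class I, stood at 1616, 1578 and 1576 CPM against 1394, 1211 and 1320 CPM, and H2-K1 at 1.01-, 1.04- and 1.12-fold. For class II, 0 of 10 tested genes reached 2-fold in either direction in all 3 libraries, and H2-Aa had ratios of 0.778, 0.836 and 0.921. Over all tested genes 0.806% were 2-fold higher and 0.103% lower in all 3, so the 2-fold counts of both classes say little.

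B cell genes were slightly lower in members when all barcodes were used. Of 16 tested genes of B cell identity 0 reached 2-fold in either direction in all 3 libraries. Over all tested genes 0.806% were higher and 0.103% lower, so this count says little. The median log2 ratio of the 16 was -0.39, -0.23 and -0.16. Cd79a, a gene of the gate, stood at 2627, 3297 and 3206 CPM against 3352, 3685 and 3676 CPM. Without the barcodes rich in monocyte markers that are described below, the median of the list was -0.04, 0.01 and -0.11, and Cd79a stood at 3430, 3992 and 3405 CPM against 3436, 3756 and 3785 CPM.

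Subset markers gave members and other B cells similar shares, within wide intervals. Fcer2a, the CD23 of follicular B cells, was detected in 82.0%, 66.7% and 57.8% of members and in 79.8%, 72.1% and 66.4% of the other B cells, and each member interval included the value of the other cells. After thinning to 2000 UMIs 30 of 50, 14 of 32 and 23 of 64 members had a UMI, against 61.5%, 51.4% and 49.9% of the other B cells, and in library 3 the member interval (24.3% to 48.9%) lay below. A lambda light chain outnumbered kappa in 4 members of each library, against 10.1%, 10.2% and 7.77% of the other B cells. Cd93, a marker of immature B cells, was found in 10.0%, 0.0% and 3.13% of members against 4.96%, 3.33% and 4.01%. Mki67 or Top2a, markers of dividing cells, were found in 0 of 50, 1 of 33 and 2 of 64 members. Igha, the constant region of IgA, was found in 2 of 50, 2 of 33 and 0 of 64 members, and the exact interval of the last reaches 5.60%.

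Some surface genes of activation were detected in more of the members. Ly6a and Cd69 of these are also on an interferon list, so they are not a trait apart from it. Ly6a, known as Sca-1, was found in 84.0%, 72.7% and 89.1% of members against 45.1%, 47.2% and 60.5% of the other B cells. Its level was 523, 682 and 953 CPM against 247, 319 and 484 CPM, so it missed the 2-fold line in library 3 with a ratio of 1.97. Cd69, which holds lymphocytes in tissue, was found in 28 of 50, 17 of 33 and 43 of 64 members against 40.8%, 46.0% and 41.0%, and after thinning in 32.0%, 37.5% and 43.8% against 24.3%, 31.3% and 27.7%, where the member interval excluded the other cells' value in library 3 alone. Cd86, a costimulatory ligand, was found in 7 of 50, 6 of 33 and 10 of 64 members against 5.71%, 6.66% and 6.74% of the other B cells, but in 4.00%, 6.25% and 3.13% against 2.34%, 2.63% and 3.00% after thinning. Of 9 tested activation genes 0 were 2-fold higher in every library, beside 0.806% of all tested genes. Without the monocyte-rich barcodes Cd86 alone of 8 was.

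A few member barcodes also held many monocyte transcripts. At 8 or more UMIs over 10 monocyte markers there were 5, 3 and 2 members (10.0%, 9.09% and 3.13%) and 102, 21 and 36 other B cells (2.40%, 1.52% and 1.85%). In library 1 these 5 barcodes held 30.65% of all UMIs of the members. With Scrublet doublets left out, 2 and 1 such barcodes held 14.79% and 2.34% in libraries 2 and 3. Over all 12 monocyte markers the summed level was 9235, 7303 and 2202 CPM in members against 1537, 1614 and 1388 CPM, with none of the 12 at 0 in libraries 1 and 2 and Treml4 at 0 in library 3. Erythroid markers in members of library 1 stood at 23690 CPM against 3197 CPM, and 1 barcode held 70.0% of those UMIs. In libraries 2 and 3 they were lower in members, at 531 and 905 CPM against 7090 and 6624 CPM. For the monocyte markers a single barcode held 36.7%, 57.4% and 63.3% of the UMIs. Neutrophil markers in members of library 1 stood at 5082 CPM against 242 CPM, and 98.1% of those UMIs lay in 1 barcode. In libraries 2 and 3 they stood at 1229 and 818 CPM against 1343 and 1005 CPM. The 10 NK cell markers summed to 898, 787 and 692 CPM in members against 385, 257 and 302 CPM, and a single barcode held 61.6%, 52.3% and 71.9% of the member UMIs. The 12 T cell markers, of which the gate limits Cd3e, Cd3d and Cd3g, summed to 20, 4 and 23 UMIs in members. That is 53.9, 20.8 and 68.9 CPM against 79.7, 45.4 and 70.4 CPM in the other B cells. In library 3 a single member barcode held 43.5% of the UMIs. Cd4, Cd8a and Cd8b1 of the list had 0 UMIs in members of every library, and others of the list were detected.

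The sum of the 8 markers listed for plasmacytoid dendritic cells was higher in members. Only Bst2 and Tcf4 of the list could be tested. Both were above the other B cells in each library, and Bst2 alone reached 2-fold in all 3. The 8 markers summed to 561, 662 and 644 CPM against 311, 308 and 319 CPM. Of the members 64.0%, 66.7% and 51.6% held 3 or more of their UMIs, against 18.3%, 16.1% and 15.2% of the other B cells. Bst2, described above among the effectors, is part of these sums. Siglech, Cox6a2 and Klk1 of the list had 0 UMIs in members of every library, and Siglech and Klk1 also had 0 in the other B cells of libraries 1 and 2. The part of plasmacytoid dendritic cells or NK cells in the results was not tested.

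Leaving out all barcodes with 8 or more monocyte-marker UMIs, a step chosen after seeing the data, left 45, 30 and 62 members. Then 51 genes were at least 2-fold higher in all 3 libraries, and 44 of these were among the 55 found with all barcodes. The 11 that dropped out were Adar, Ccl9, Ccr2, Csf1r, Hp, Ifitm3, Ifitm6, Mpeg1, Ogfrl1, Plac8 and S100a4. Several of them are genes of monocytes and other myeloid cells, such as the receptors Ccr2 and Csf1r. Ccr2 had been at 378, 167 and 126 CPM in members and then had 0, 0 and 2 UMIs, and S100a4 went from 157, 128 and 65 UMIs to 1 in each library. Ifitm3, an endosomal block to virus entry, went from 9.36-, 7.35- and 3.31-fold to 2.03-, 1.51- and 5.56-fold.

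The ratios of the leading interferon genes were about as large in that comparison. Isg15 stood 22.1-, 40.3- and 32.0-fold higher, Slfn5 17.3-, 10.3- and 14.2-fold, and Irf7 11.8-, 12.5- and 7.41-fold. Of 47 tested effectors 25 and of 8 p200 genes the same 6 were higher in all 3 libraries. The share of B cells meeting the rule was 1.07%, 2.16% and 3.15%. With barcodes of 3 or more monocyte-marker UMIs left out, the lowest log2 ratio of Isg15 was 4.54. It was not among the called genes there, because it did not reach 10 CPM over the B cells of every library and so was not tested.

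A stricter gate, with a minimum of 500 genes and a mitochondrial share of 5% or less, left 5, 4 and 11 members, which is 2.03%, 1.83% and 3.04% of the B cells that remained, so library 2 and not library 1 had the lowest share. Barcodes rich in monocyte markers held 88.9%, 93.1% and 40.2% of their UMIs. There the lowest log2 ratio over the libraries was -0.71 for Bst2, -0.73 for Ifi206 and -1.44 for Tor3a. These 3 genes and 5 others, Ifi203, Ifi208, Ifi213, Gbp7 and BC051226, were thus lower in members in at least 1 library of this small set.

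**Figure D3:**
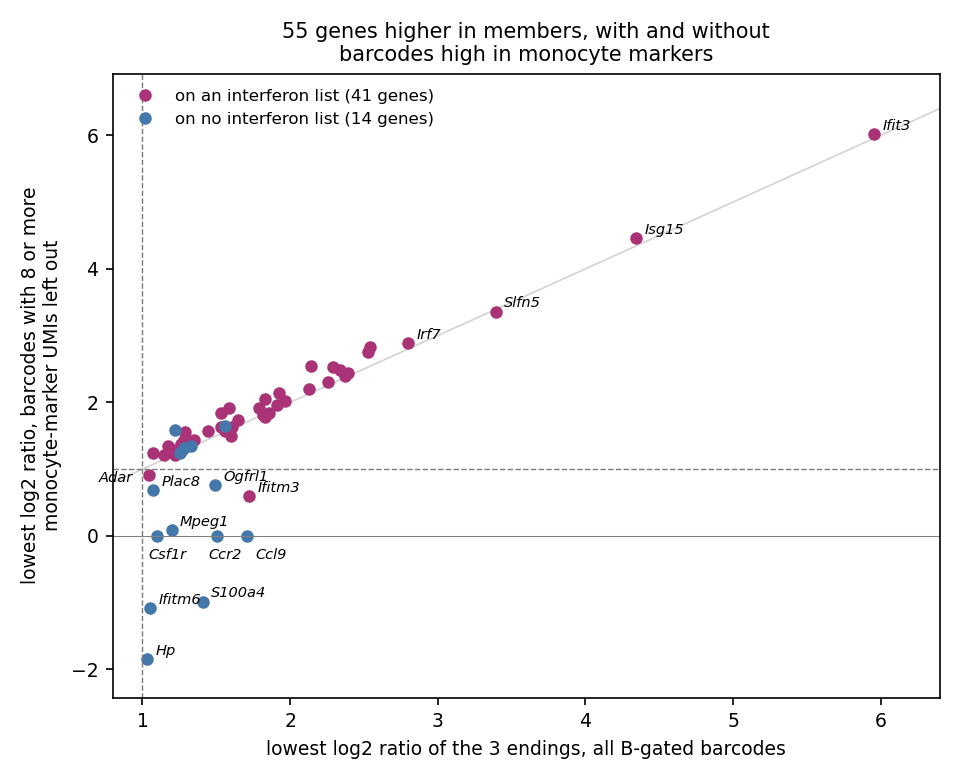
Lowest log2 ratio over the 3 libraries of members to other B cells for the 55 genes at least 2-fold higher in every library, with all barcodes (horizontal) and without barcodes of 8 or more monocyte-marker UMIs (vertical). Dashed lines mark 2-fold. Points on 0 are genes with 0 UMIs left in members of a library. Isg15, Slfn5 and Irf7 stay near the diagonal, and Ccr2, S100a4 and Hp drop to 0 or below.

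Of the 55 genes 12 were on none of the lists. Besides Ccl9, Hp, Ifitm6, Mpeg1, Ogfrl1, Plac8 and S100a4, which did not keep their call, these were BC051226, Cybb, Mitd1, Trafd1 and Trim30b. Mitd1, a protein of cytokinesis, stood at 89.0, 125 and 114 CPM against 38.3, 35.6 and 39.6 CPM. Cybb, the catalytic subunit of the phagocyte oxidase that B cells also express, stood at 626, 563 and 464 CPM against 205, 170 and 191 CPM, and at 455, 396 and 411 CPM against 172, 142 and 165 CPM without the monocyte-rich barcodes. Trafd1, a feedback regulator of innate signalling, stood 3.07-, 2.39- and 3.07-fold higher. Trim30b, a neighbour of Trim30a on chromosome 7, stood 3.08-, 2.75- and 2.51-fold higher. BC051226 (chr17:33908044-33909317, minus strand) is annotated as a noncoding RNA of a bidirectional promoter next to Daxx, which starts at 33909414 on the plus strand, and stood 3.55-, 4.15- and 2.94-fold higher. UMIs of these 5 genes were spread over 8 to 41 members of a library.

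The genes lower in members rested on very few UMIs. Of the 7, those with a gene symbol were Btrc, Ccar2, Cdpf1, Phykpl, Snx25 and Mtif3, each with 1 to 3 UMIs in the members of a library. Btrc, a subunit of a ubiquitin ligase, had 2, 1 and 2 UMIs in members, which is 5.39, 5.21 and 5.99 CPM, against 15.7, 14.8 and 15.8 CPM. All 3 intervals of its ratio included 1. With members holding 370748, 191966 and 333771 UMIs in all, a gene at 10 CPM would have few UMIs, and a fall in such a gene was not detectable at this depth.

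Levels of interferon genes outside the rule were higher in B cells with more rule UMIs, below the threshold too. Over the 3 libraries together, the summed effectors stood at 7259 CPM in B cells with 0 rule UMIs, 8636 CPM with 1, 10740 CPM with 2 and 12710 CPM with 3. They reached 14920 CPM with 4 to 5, 16680 CPM with 6 to 9 and 20310 CPM with 10 or more. The p200 genes went over the same steps from 1235 to 4525 CPM, and Irf7 from 17.0 CPM to 316 CPM at 6 to 9 and 313 CPM at 10 or more. Cells just outside the threshold were thus already higher than cells without a rule UMI, and no gap in level marks the threshold.

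The shape differed between genes. Isg15 stood at 7.99, 14.8, 36.3, 71.2, 108, 194 and 621 CPM over the 7 steps, and in the last it was found in 90.9% of 33 cells. Slfn5 went from 27.5 to 782 CPM. B2m went from 1343 to 1668 CPM. Cd79a stood between 2520 and 3803 CPM with no steady direction. In single libraries the steps were less regular, with 4 to 21 cells each above the threshold, and Isg15 had 0 UMIs in the 4 cells of library 1 with 6 to 9 rule UMIs.

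**Figure D4:**
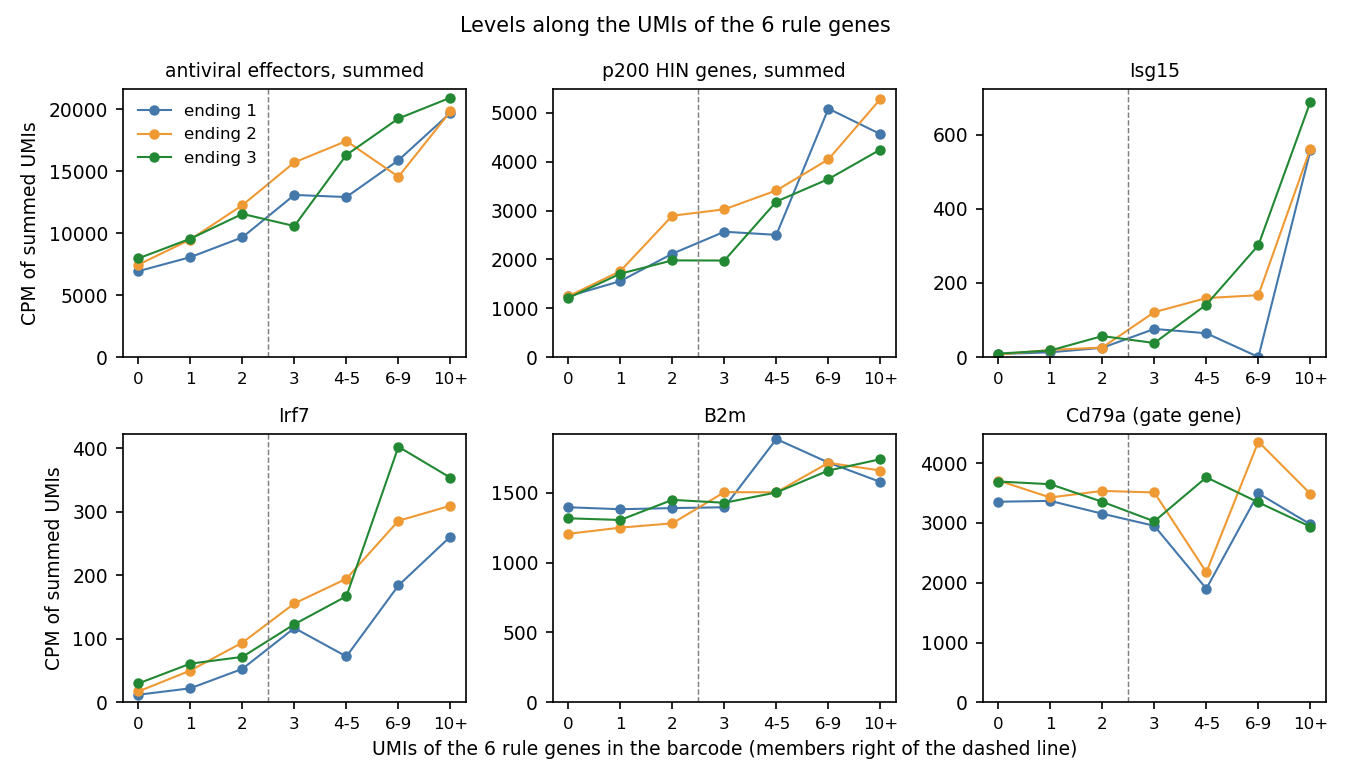
Levels (CPM of summed UMIs) of the summed antiviral effectors and p200 genes outside the rule, Isg15, Irf7, B2m and Cd79a in B cells grouped by their UMIs of the 6 rule genes, 1 line per library, with members right of the dashed line. Effectors rise from between 6927 and 7957 CPM at 0 rule UMIs to between 19710 and 20930 CPM at 10 or more, and Cd79a stays between 1900 and 4358 CPM.

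Cell by cell the members overlapped with the other B cells. Effectors outside the rule took a median of 1.57%, 1.61% and 1.58% of a member's UMIs, with lowest values of 0.552%, 0.964% and 0.692% and highest values of 3.28%, 3.31% and 5.13%. In the other B cells the median was 0.668%, 0.705% and 0.778% and the highest cell reached 2.14%, 2.47% and 2.64%. In libraries 1, 2 and 3, 84.0%, 78.8% and 60.9% of members lay above the 95th percentile of the other B cells. Some B cells below the threshold therefore had as large a share of effector UMIs as the typical member. The median member had UMIs of 27, 25 and 25 of the 70 effectors, and the median other B cell of 11 in each library.

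Cells of other classes met the same threshold too. Among T-gated barcodes (at least 3 Cd3 UMIs, at most 1 Cd79 UMI) 3.41% (40 of 1172), 7.62% (40 of 525) and 10.7% (86 of 806) had 3 or more rule UMIs. Their depth was higher, with a median of 6199, 6318 and 6346 UMIs against 3993, 3834 and 3638 in B cells. After thinning to 2000 UMIs the T cell shares were 1.03%, 2.11% and 4.76%. Each of these lay above the B cell share of the same library, and only in library 3 did the intervals not overlap. Library 1 was lowest and library 3 highest in both classes.

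Neutrophil-gated barcodes (at least 3% of UMIs from S100a8 and S100a9) had another order. Their shares were 4.12% (20 of 485), 2.72% (88 of 3232) and 9.05% (181 of 2001), at a median of 2773, 3277 and 5248 UMIs. After thinning they were 2.70% (1.40% to 4.67%), 1.54% (1.13% to 2.06%) and 2.85% (2.14% to 3.72%), so library 2 stayed the lowest and library 3 the highest. The intervals of libraries 1 and 3 then overlapped.

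**Figure D5:**
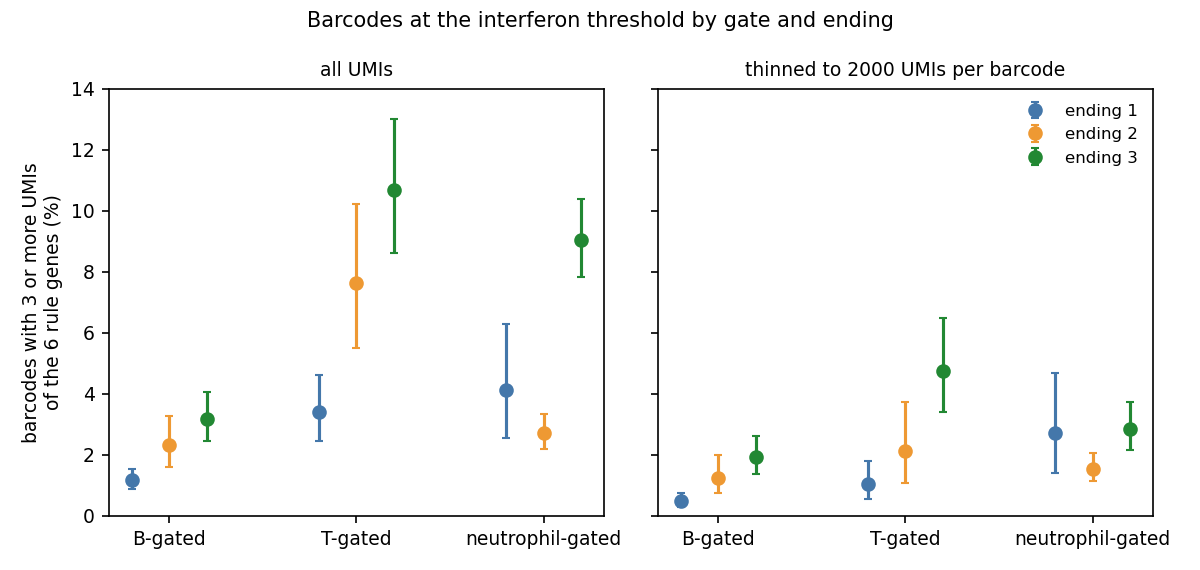
Percent of B-gated, T-gated and neutrophil-gated barcodes with 3 or more UMIs of the 6 rule genes in each library, with all UMIs (left) and after thinning to 2000 UMIs (right). Bars are exact 95% intervals for counting error. B and T cells have their lowest share in library 1 and their highest in library 3, and the neutrophil value of library 3 falls from 9.05% to 2.85%.

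B cells that did not meet the rule also differed between libraries in some interferon genes. Of 49 effectors tested in them 10 were at least 1.5-fold higher in library 3 than in library 1 and 1, Uba7, was lower, beside 94 of 7163 genes in all (1.31%) that were higher and 185 (2.58%) that were lower. Rtp4 stood at 11.9, 16.2 and 31.4 CPM in libraries 1, 2 and 3, Irf7 at 13.8, 21.0 and 34.8 CPM, Ly6a at 247, 319 and 484 CPM, and Ifi27l2a at 424, 461 and 715 CPM. Ifitm1, at 2.99, 58.8 and 37.7 CPM, and S100a8, at 101, 471 and 360 CPM, both expressed by neutrophils, also differed between the libraries' B cells, and their part in these differences was not tested.

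S100a8, a neutrophil gene that B cells lack, served as a measure of carried-over RNA. The level of S100a8 in the other B cells was 0.155%, 0.420% and 0.258% of that in neutrophil-gated barcodes. If every neutrophil transcript were carried over at that ratio, Isg15 in B cells would stand at 0.155, 0.522 and 0.455 CPM and Rtp4 at 0.182, 0.600 and 0.551 CPM. The measured levels, 8.77, 7.91 and 11.7 CPM for Isg15, were above these values in every library. Carry-over from other cell types was not estimated, and the part of carried-over RNA in the measured levels was not tested.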

How the data were processed

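The data are a single matrix of UMI counts per gene and barcode (31053 genes, 22204 barcodes) that the authors deposited for all libraries together. The counts are raw, and the deposited matrix was written by Cell Ranger 6.0.2, per the file headers. The tools named per the submitters' processing notes, without their roles, are R 4.0.2, Seurat 3.0, Trimmomatic 0.39 and Cell Ranger 4.0.0, and the build is GRCm38. The 2 versions of Cell Ranger differ, and the sources used here do not say which of them made the counts.

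Libraries were separated by barcode ending, and gates and members followed the rule in the report. The members and the gene lists were chosen with earlier results of these data known. In each library UMIs were summed over members and over the other B cells, scaled to a total of 1000000 (CPM) and compared as a log2 ratio for genes at 10 CPM or more over all B cells. A gene was called at 2-fold or more in all 3 libraries. A count of 0 was set to a floor of 3 UMIs over the group, and no ratio is printed for it. Exact 95% intervals (Clopper-Pearson for shares, conditional on the sum of both counts for ratios) cover counting error only, and cells of a library are not replicates.

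Genes named were the markers, the rule genes, the called genes of each list (for lists with over 10, the 10 with the largest lowest ratio), and up to 20 higher and 10 lower genes outside the lists, leaving out T cell receptor, immunoglobulin, mitochondrial and globin genes and models without a gene name. The lists held 461 genes, of which 455 were in the matrix, and 1 further gene is not reported here and entered the library totals only. Thinning drew 2000 UMIs per cell at random and left out shallower cells, 103, 52 and 75 of the B cells. Scrublet, as run in scanpy, called 0.1%, 2.14% and 3.84% of kept barcodes doublets in libraries 1, 2 and 3. It was treated as not having worked in library 1, and no doublet was removed except as an alternative. Promoter sequences were taken from RefSeq (GRCm38.p6). Gene coordinates are those of the GENCODE annotation of GRCm38. The scripts were tested on simulated data. Alternatives covered the UMI threshold, thinning, stricter gates, doublets, scaling, the filter on low levels, weighting by depth and, chosen after seeing the data, leaving out barcodes with monocyte markers and weighting every cell alike. Python 3.11.15, numpy 2.4.6, pandas 2.3.3, scipy 1.17.1, scanpy 1.11.5, matplotlib 3.10.9, and edgeR 4.0.16 in R 4.3.3 (for trimmed mean scaling) were used.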

Additional observations from a re-analysis of the deposited data

How the results depend on the processing

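No paired analysis was possible because each group is 1 library and no library is tied to a group. Of the shares and counts recomputed, 72 values stayed near those reported (a share within its 95% interval, a count within 1.5 times) and 42 moved further. The share of B cells meeting the rule was 2.51%, 4.24% and 5.83% in libraries 1, 2 and 3 at a threshold of 2 UMIs, 0.488%, 1.20% and 1.79% at 5 UMIs, 0.476%, 1.25% and 1.91% after thinning, and 0.697%, 1.56% and 1.99% without Ifit3. With a stricter gate (a minimum of 500 genes, a mitochondrial share of 5% or less) it was 2.03%, 1.83% and 3.04%, so library 2 was the lowest there. In the other settings named, library 1 was the lowest and library 3 the highest. For T-gated barcodes the share was 9.04%, 13.7% and 16.9% at 2 UMIs and 1.03%, 2.11% and 4.76% after thinning. For neutrophil-gated barcodes it was 7.22%, 5.11% and 14.2% at 2 UMIs, and 1.54% in library 2 and 2.85% in library 3 after thinning.

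The count of 55 genes higher in all 3 libraries became 203 with no filter on low levels, 17 at 50 CPM or more and 106 with the stricter gate. The count of 7 lower genes became 13 with trimmed mean scaling, 0 at 50 CPM, 11 without Scrublet doublets, 26 with the stricter gate, 16 without barcodes of 8 or more monocyte-marker UMIs and 23 with every cell weighted alike. Higher effectors numbered 9 at 50 CPM and 11 with the stricter gate, and p200 genes 1 with the stricter gate. Higher GTPases numbered 9, 0 and 1, and higher sensors 7, 0 and 1, with no filter, at 50 CPM and with the stricter gate. Fewer genes are tested at 50 CPM (2354). Trimmed mean scaling moved the median log2 ratio over all genes to -0.14, -0.15 and -0.09.

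Of the named genes' values 320 stayed within the 95% counting interval of the reported ratio, which is wide for rare genes and lets some fall to 0, 57 moved outside it and 30 changed direction, given here as the lowest log2 ratio over the libraries. With the stricter gate these were BC051226 (-0.31), Bst2 (-0.71), Gbp7 (-0.46), Ifi203 (-0.30), Ifi206 (-0.73), Ifi208 (-0.16), Ifi213 (-0.098), Tor3a (-1.44) and, by its highest ratio, Snx25 (0.97). With the other B cells weighted by total UMIs they were Ccl9 (-0.32), Ccr2 (-0.43), Hp (-0.43) and Ifitm6 (-0.071). With members of 5 or more rule UMIs they were Ccl9 (-0.19), Ccr2 (-0.79), Hp (-2.37), Ifitm6 (-1.33), Mpeg1 (-0.92) and S100a4 (-2.74). Without Scrublet doublets they were Ccr2 (-2.47), Hp (-1.15), Ifitm6 (-1.57), Mpeg1 (-0.0055) and S100a4 (-3.94). Without barcodes of 8 or more monocyte-marker UMIs they were Hp (-1.85), Ifitm6 (-1.08) and S100a4 (-0.98), and without those of 3 or more Hp (-1.43), Ifitm6 (-1.33) and S100a4 (-0.31). The stricter gate left 5, 4 and 11 members. Otherwise the cause was not tested.

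With 33 to 64 members per library, genes near 10 CPM rest on a few UMIs in members. Each library is 1 pool, so the spread between mice was not measured.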

Other observations

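Genes of apoptosis and survival leaned slightly upward in members, and 0 of 12 tested reached 2-fold in all 3 libraries. Over all tested genes 0.806% were higher and 0.103% lower, so this count says little. The median log2 ratio of the 12 was 0.29, 0.43 and 0.42 in libraries 1, 2 and 3. It was 0.16, 0.43 and 0.20 without the barcodes of 8 or more monocyte-marker UMIs. Casp8, the initiator caspase of death receptors, stood at 89.0, 120 and 141 CPM in members against 63.1, 71.2 and 73.0 CPM in the other B cells, with a ratio of 1.41 (0.966 to 1.99), 1.68 (1.05 to 2.56) and 1.93 (1.40 to 2.6). Casp4, which senses bacterial lipopolysaccharide in the cytosol, had ratios of 2.43 (1.43 to 3.90), 1.5 (0.594 to 3.18) and 2.58 (1.44 to 4.33). Bcl2, an inhibitor of apoptosis, had ratios of 0.906, 1.30 and 1.04, each with an interval that included 1. These genes were chosen after their values were seen.

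Of 9 tested targets of glucocorticoid hormone 0 reached 2-fold in either direction in all 3 libraries, beside 0.806% higher and 0.103% lower among all tested genes, so this count says little about the list. Their median log2 ratio was -0.22, -0.14 and -0.20. Tsc22d3, the leucine zipper protein GILZ, stood at 248, 677 and 611 CPM in members and at 279, 823 and 700.5 CPM in the other B cells. Library 1 was thus the lowest in both sets of cells. Cxcr4, a chemokine receptor that retains B cells in bone marrow, showed the same order, with 51.2, 182 and 123 CPM in members against 66.2, 210.5 and 159 CPM.

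Of 11 tested genes of NF-kappaB signalling and 8 of the cell cycle 0 reached 2-fold in all 3 libraries. Over all tested genes 0.806% were higher and 0.103% lower, so these counts say little about the lists. The median log2 ratios were 0.12, 0.09 and -0.22 for NF-kappaB and -0.53, -0.13 and -0.23 for the cell cycle.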
